A study of Sus scrofa domesticus with 6 samples.

Results

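The major histocompatibility complex class II genes encode the proteins with which cells show peptides from taken-up protein to CD4+ T cells. They are described here across the cell classes of pig lung after transplantation with ischemia-reperfusion injury (IRI) and of control lung. The members were the feature rows named exactly HLA-DRA, SLA-DQA1, SLA-DQB1, SLA-DMA, SLA-DMB, CD74 and CIITA. Of these 7 names, 6 had a row in all 6 libraries and SLA-DQA1 had a row in none, so SLA-DQA1 is not analysed here. The libraries together listed 33025 features, of which 23556 were listed in all 6. Levels are given as CPM: counts of UMIs (unique molecular identifiers, each standing for 1 captured RNA molecule), summed over the cells of 1 class in 1 library and scaled to 1000000 UMIs of the shared features.

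The IRI group came from the grafts of an orthotopic single-lung transplant in pigs, kept cold for 24 h and then reperfused for 8 h. Viable cells carrying CD45, the common leukocyte surface protein, were sorted from 2 graft samples and gave the 2 IRI CD45+ libraries; cells lacking CD45 were sorted from 1 graft sample and gave the single IRI CD45- library. The control group was 3 libraries of unsorted cells from the right lungs of donors. The sources used here do not give strain, sex or age. Sorting, transplantation and the library set therefore changed together, and their parts in any difference between IRI and control cannot be told apart. The labels do not say whether a control and a graft library with the same number share a donor, and p-values measure the spread between these libraries only.

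As background, a class II molecule is a pair of an alpha and a beta chain; in pigs these are the DR and DQ chains, of which HLA-DRA (the name the files give to the DR alpha gene) and SLA-DQB1 (DQ beta) are measured here. CD74, the invariant chain, fills the groove of a new molecule until it reaches endosomes, where proteases cut CD74 down and the DM heterodimer of SLA-DMA and SLA-DMB swaps the last fragment for a peptide. CIITA is the transactivator without which class II promoters stay largely silent, and interferon gamma induces it. Dendritic cells, macrophages and B cells are the professional antigen-presenting cells, while in lung alveolar type 2 (AT2) cells and, in pigs, capillary endothelium are known to carry class II as well.

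In the RefSeq table of Sscrofa11.1, the build named in the submitters' processing notes, SLA-DQB1 (chromosome 7, 24969034 to 24977238), SLA-DMB (chromosome 7, 25119278 to 25125089) and SLA-DMA (chromosome 7, 25133494 to 25137928) lie close together. CD74 (chromosome 2, 151402210 to 151409924) and CIITA (chromosome 3, 32171706 to 32230775) lie elsewhere. HLA-DRA has no entry of that name there.

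Library totals ran from 19098567 to 40647380 UMIs, and 40812 of 43322 deposited cells were used. The lowest deposited cell held 74 to 117 UMIs in the IRI libraries and 1001 UMIs in each control library. The 13 mitochondrial genes took 0% of UMIs in the IRI libraries and 5.58% to 6.95% in the control libraries, so the files of the 2 sets were not filtered alike. Shared features held 98.8% to 99.9% of UMIs in IRI libraries and 85.1% to 88.6% in control libraries. Cell names are running numbers, so 2527 to 4924 names recurred between any 2 libraries, but no 2 cells had identical counts.

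Classes were rebuilt by clustering without the class II genes and named from marker lists, with "-like" marking a rebuilt name. Dendritic markers summed to 4644 to 6279 CPM in dendritic-like cells of the IRI CD45+ libraries, against 4184 to 4462 in those of the control libraries. Macrophage markers summed to 11592 to 12802 in macrophage-like cells of the IRI CD45+ libraries, against 10076 to 13048 in control macrophage-like cells. B markers summed to 2928 to 2956 in B-like cells of the IRI CD45+ libraries, against 1667 to 2123 in control B-like cells. Monocyte markers formed no class that could be named, so monocyte-like cells could not be compared.

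The order of the classes was the same for HLA-DRA and CD74 at its upper end. Among control libraries, HLA-DRA averaged 6788 ± 252 CPM in dendritic-like, 2399 ± 237 in macrophage-like, 1180.3 ± 174 in endothelial-like, 833 ± 53.6 in B-like and 726 ± 126 in lymphatic endothelial-like cells (SD, n = 3). Each of the first 4 ranges lay above the next without overlap; the ranges of B-like and lymphatic endothelial-like cells overlapped. Below these, cycling-like, NK/cytotoxic-like, plasma-like and fibroblast-like cells averaged between 189 and 241, and their ranges overlapped. T-like and smooth muscle/pericyte-like cells stood at 126 ± 16.2 and 123 ± 18.0, and mast/basophil-like cells ran from 32.2 to 86.0. For CD74 the same 5 classes led, from 8705 ± 626 in dendritic-like down to 1468 ± 264 in lymphatic endothelial-like cells, but the ranges of macrophage-like and endothelial-like cells overlapped, as did those of endothelial-like and B-like cells. Ciliated-like cells stood lowest, with HLA-DRA at 6.41 and 37.3 in the 2 control libraries that held enough of them.

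The other members gave B-like cells or endothelial-like cells another rank. SLA-DQB1 averaged 8446 ± 248 CPM in control dendritic-like cells, 2879.9 ± 467 in macrophage-like, 2420.1 ± 146 in B-like and 1259.8 ± 180.1 in endothelial-like cells, the macrophage-like and B-like ranges overlapping. SLA-DMA averaged 688 ± 14.8 in dendritic-like, 411 ± 1.43 in macrophage-like, 229 ± 28.4 in B-like and 194 ± 42.8 in endothelial-like cells, with the last pair overlapping. SLA-DMB overlapped between dendritic-like (424 ± 22.9) and macrophage-like cells (391 ± 26.3), and B-like cells (109 ± 2.26) lay within the range of endothelial-like cells (109 ± 20.6). CIITA put endothelial-like cells next to dendritic-like cells, at 70.0 ± 11.4 against 89.9 ± 13.5, with B-like cells at 52.1 ± 8.04 and macrophage-like cells at 32.5 ± 6.85; each of these neighbouring ranges overlapped except that B-like cells lay above macrophage-like cells.

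**Figure D1:**
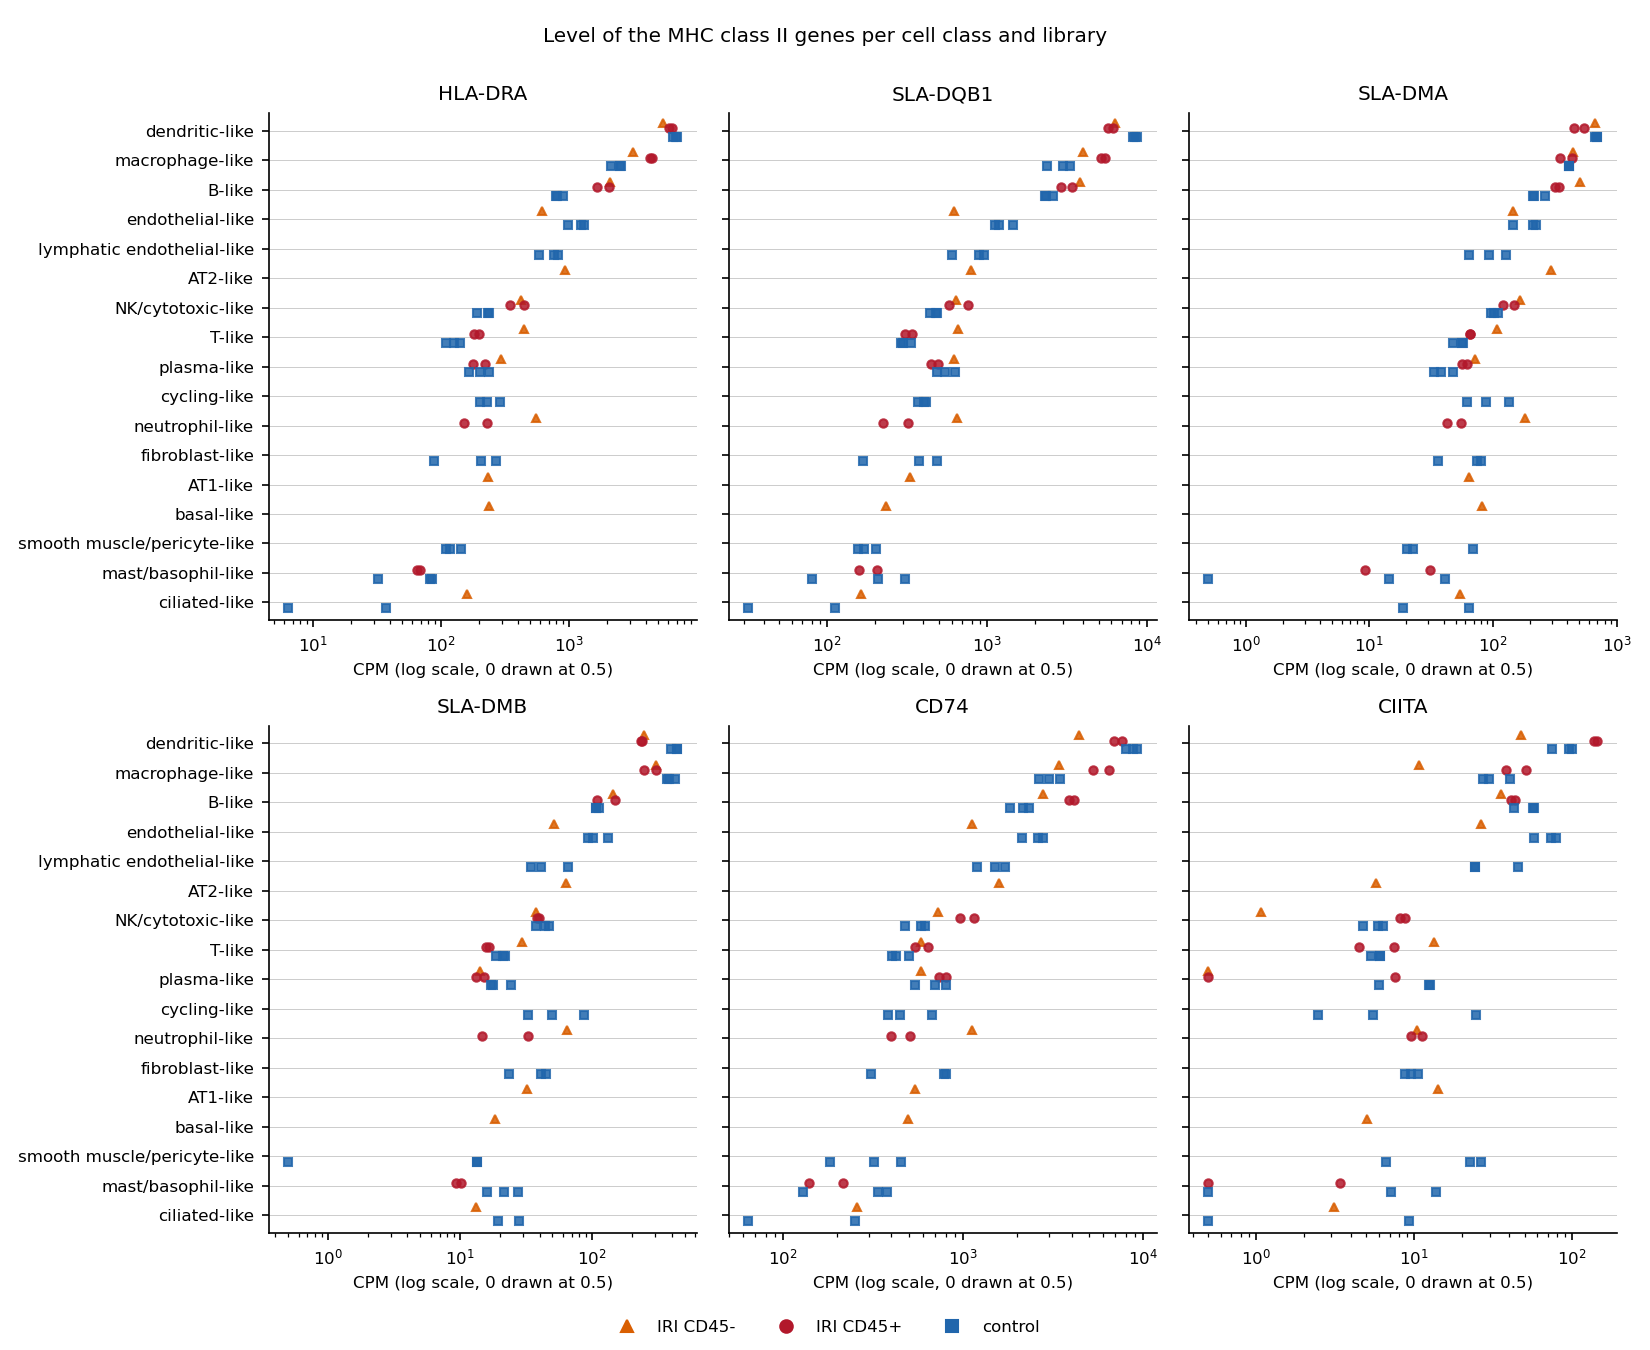
CPM (log axis) of each of the 6 measured genes in each class and library of at least 20 cells; triangles are the IRI CD45- library, circles the IRI CD45+ libraries and squares the control libraries. Dendritic-like cells stand at the top for the chains and CD74, control endothelial-like cells lie above control B-like cells for HLA-DRA, and SLA-DMB in dendritic-like cells is lower in both IRI CD45+ libraries than in all 3 control libraries.

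In macrophage-like cells the class II chains and CD74 were higher in the grafts, by log2 changes close to 1. HLA-DRA stood at 4307 and 4480.0 CPM in the IRI CD45+ libraries, against 2125, 2528 and 2543 in the control libraries. SLA-DQB1 stood at 5198 and 5483 in the IRI CD45+ libraries, against 2371, 2979 and 3289 in the control libraries. CD74 stood at 5266 and 6432 in the IRI CD45+ libraries, against 2649, 3439 and 2983 in the control libraries. Both IRI CD45+ libraries lay above all control libraries for each of these genes. HLA-DRA rose (log2 change 0.99 ± 0.16 (SE), adjusted p = 0.00130, quasi-likelihood F-test of edgeR, Benjamini-Hochberg adjusted over 10829 genes, 2 against 3 libraries), as did SLA-DQB1 (log2 change 1.01 ± 0.18 (SE), adjusted p = 0.00185) and CD74 (log2 change 1.08 ± 0.18 (SE), adjusted p = 0.00126). These 3 of the 6 tested members were called higher and none lower, where 11.9% of all genes tested were called higher and 29.4% in either direction; the median log2 change was 0.79 over the members and -0.26 over all genes tested.

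The peptide editor genes did not move with the chains in macrophage-like cells. SLA-DMA stood at 347 and 438 CPM in the IRI CD45+ libraries, against 410.4, 411 and 413 in the control libraries, and the groups overlapped (log2 change 0.05 ± 0.18 (SE), adjusted p = 0.858). SLA-DMB stood at 246 and 304 in the IRI CD45+ libraries, against 369, 420.4 and 384 in the control libraries, below them in both but not past the threshold (log2 change -0.39 ± 0.19 (SE), adjusted p = 0.137). CIITA, a low transcript at 50.9 and 38.0 in the IRI CD45+ libraries, against 40.3, 29.9 and 27.4 in the control libraries, overlapped in CPM (log2 change 0.58 ± 0.32 (SE), adjusted p = 0.185); it passed in 1 alternative, with class II genes forced into the clustering (adjusted p = 0.0492). On TMM-scaled values (TMM is the trimmed mean of M-values, edgeR's scaling for composition) the IRI CD45+ libraries lay above all control libraries for 4 members, where 22.7% of genes did, and below for 1, where 38.7% did. With 38 and 47 macrophage-like cells in the IRI CD45+ libraries against 301, 441 and 434 in the control libraries, the graft side is the thinner one. Graft clusters whose best match was monocyte stayed unnamed and were not in this class. In the IRI CD45+ libraries they held 57 and 156 cells and 56 and 254 cells. The macrophage-like change thus leaves out many graft myeloid cells. The IRI CD45- library held 25 further macrophage-like cells, with HLA-DRA at 3169.7 and CD74 at 3418 CPM. It entered the tests of leukocyte classes only in an alternative that added it to the IRI group.

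Macrophage-like cells of grafts and controls did not share sub-clusters. Clustered on their own without class II genes, all graft cells fell into sub-cluster 0 and all control cells into sub-clusters 1 to 7. The control sub-cluster led by C4BPA, FOLR2, CXCL9 and CD209 (sub-cluster 3) had HLA-DRA at 5014, 4854 and 4792 and CD74 at 7108, 6267 and 5234 CPM in the 3 control libraries. Its HLA-DRA lay above that of the graft sub-cluster in every library. It made up 8.97%, 14.97% and 26.3% of control macrophage-like cells. C1QA, a complement gene of tissue macrophages, was at 2198 CPM in the graft sub-cluster and 5063 in control sub-cluster 3. In the other control sub-clusters with at least 20 cells in a library, HLA-DRA ran from 270.4 to 4592. The control class thus mixed cells of low and high class II, and the part of that mixture in the change was not tested.

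Marker lists of other cell types were read in the same macrophage-like cells. The dendritic list summed to 932 to 1066 CPM in the IRI CD45+ libraries, with 9 and 11 of its 12 markers present. It summed to 809 to 1114 in the control libraries, where all 12 were present. Single dendritic genes did not move alike: XCR1 stood at 17.7 and 16.6 in the IRI CD45+ libraries, from 8 and 7 UMIs, against 2.01, 2.76 and 1.90 in the control libraries, and FLT3 at 0 and 2.38 in the IRI CD45+ libraries, against 1.61, 3.32 and 1.36 in the control libraries. The B list, with 7 of 11 markers present in each IRI CD45+ library, summed to 77.4 to 138 in the IRI CD45+ libraries, against 142 to 165 in the control libraries. The summed dendritic list overlapped between the groups and the summed B list was lower in the grafts. The T list summed to 226 to 403 in the IRI CD45+ libraries, against 53.7 to 122 in the control libraries, and the monocyte list to 961 to 1029 in the IRI CD45+ libraries, against 2191 to 2919.6 in the control libraries. ARG1, arginase 1, stood at 7202 and 3141 in the IRI CD45+ libraries, against 765, 912 and 789.8 in the control libraries. The plasmacytoid dendritic list summed to 136 to 144 in the IRI CD45+ libraries, against 79.4 to 113 in the control libraries, and the cycling list to 2.38 to 55.3 in the IRI CD45+ libraries, against 171 to 194 in the control libraries. The part of the XCR1, T, monocyte, plasmacytoid, cycling and ARG1 differences in the class II change was not tested.

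Dendritic-like cells showed another pattern: SLA-DQB1 and both peptide editor genes fell in the grafts, CIITA rose, and HLA-DRA did not pass the test. HLA-DRA stood at 6436 and 6022 CPM in the IRI CD45+ libraries, against 7012, 6516 and 6837 in the control libraries, with log2 change -0.08 ± 0.08 (SE), adjusted p = 0.449. Its sign depended on the clustering: at the finer Leiden resolution of 2.0 it was called lower (-0.46, adjusted p = 0.00188), and under the stricter cell filter and the forced clustering it was positive and not called (0.13 and 0.11). CD74 stood at 6922 and 7621 in the IRI CD45+ libraries, against 9267, 8817 and 8031 in the control libraries, below them in both but not past the threshold (log2 change -0.21 ± 0.09 (SE), adjusted p = 0.0983). In 5 of 16 alternatives CD74 was called lower, with log2 changes down to -0.58 at resolution 2.0 (adjusted p = 0.00157). SLA-DQB1 stood at 5748 and 6124 in the IRI CD45+ libraries, against 8409, 8218 and 8711 in the control libraries, and fell (log2 change -0.46 ± 0.08 (SE), adjusted p = 0.00141). SLA-DMB stood at 238 and 234 in the IRI CD45+ libraries, against 439, 398 and 436 in the control libraries, and fell (log2 change -0.80 ± 0.14 (SE), adjusted p = 0.00103). These last groups did not overlap, and the IRI CD45- library, with SLA-DMB at 247, lay below every control library too, as did its HLA-DRA at 5439 and its CD74 at 4384.

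SLA-DMA fell less firmly in dendritic-like cells, at 455 and 546 CPM in the IRI CD45+ libraries, against 699, 671 and 694 in the control libraries (log2 change -0.40 ± 0.13 (SE), adjusted p = 0.0300); the call was lost without the first IRI CD45+ library (adjusted p = 0.116) or any 1 control library (adjusted p = 0.0843, 0.0646 and 0.0805), under the stricter cell filter (adjusted p = 0.160) and in the forced clustering (adjusted p = 0.131). In the IRI CD45- library SLA-DMA stood at 674, within the control range. CIITA went the other way, with 137 and 144 in the IRI CD45+ libraries, against 74.6, 100.0 and 95.1 in the control libraries. It rose (log2 change 0.69 ± 0.18 (SE), adjusted p = 0.0117), but not without the second IRI CD45+ library (adjusted p = 0.0532) or at resolution 2.0 (adjusted p = 0.0666), and in the IRI CD45- library it stood at 47.5, below every control library. Over dendritic-like cells 1 member was called higher and 3 lower, where 15.4% of 9950 genes tested were called higher, 20.7% lower and 36.1% either way; on TMM-scaled values 1 member lay above and 3 below without overlap, where 27% and 35.6% of genes did; the median log2 change was -0.31 over the members and -0.10 over all genes.

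Within dendritic-like cells, HLA-DRA spanned a wider range among sub-clusters than among libraries. Of 6 sub-clusters, made and described after the class values were seen, 2 held all but 1 of the graft cells and the other 4 held the control cells. The larger graft sub-cluster (sub-cluster 0, 60.3% and 70.2% of dendritic-like cells in the IRI CD45+ libraries) had HLA-DRA at 8920.0 and 8173 CPM in the IRI CD45+ libraries, with 6505 in the IRI CD45- library. Its SLA-DMB was at 305 and 278 in the IRI CD45+ libraries, with 259 in the IRI CD45- library. SFTPC and SFTPA1, surfactant genes of AT2 cells, were among its leading genes, and its CCL22, a chemokine of maturing dendritic cells, was at 1794, its CCR7, a lymph node homing receptor, at 2094. The AT2 list over all dendritic-like cells summed to 5899 CPM in the IRI CD45- library, to 34.2 to 65.6 in both IRI CD45+ libraries and to 61.6 to 82.1 in the control libraries.

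The control sub-cluster with the highest CCR7 was sub-cluster 3 (11.6%, 16.6% and 12.4% of dendritic-like cells in the control libraries, with CCL22 at 972 and CCR7 at 3104 CPM). Its HLA-DRA was 2938, 1797 and 971 and its SLA-DMB 24.1, 30.8 and 0 in the 3 control libraries, below graft sub-cluster 0 in each. These sub-clusters were not matched in make-up. Graft sub-cluster 0 held nearly all graft cells outside the low sub-cluster given below, and its XCR1 was at 96.0 CPM, against 16.5 in control sub-cluster 3. The part of this in the gap was not tested. The control sub-cluster led by XCR1, CADM1 and SERPING1 (sub-cluster 5), XCR1 being the chemokine receptor of cross-presenting dendritic cells, had the highest HLA-DRA, at 12896, 11869 and 11489.9, and SLA-DMB at 722, 655 and 624. Control sub-cluster 2, with CXCL14, FCER1A and CSF1R among its leading genes, had HLA-DRA at 6815, 6779.7 and 6012 and SLA-DMB at 520.5, 449.7 and 471. No sub-cluster held enough graft and control cells for a test between them.

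A low end existed on both sides. Graft sub-cluster 1 (39.7% and 28.6% of dendritic-like cells in the IRI CD45+ libraries) had HLA-DRA at 338 and 168 CPM, and control sub-cluster 4 (32.0%, 20.1% and 15.9% in the control libraries) at 351, 359 and 286. These were the sub-clusters with the most plasmacytoid dendritic marker RNA: that list summed to 1421 in graft sub-cluster 1 and 1349 in control sub-cluster 4, and to no more than 348 in the other 4. Plasmacytoid dendritic cells are the interferon-producing relatives of the antigen-presenting dendritic cells. Under the stricter cell filter, where such a class was split off, it took 62 of 64 cells of graft sub-cluster 1 and 207 of 208 of control sub-cluster 4. The dendritic-like class thus held plasmacytoid dendritic-like cells, and without them, under that filter, SLA-DQB1 and SLA-DMB were still called lower and CIITA higher, with log2 changes of -0.27, -0.65 and 1.07, whereas SLA-DMA was not called. The forced clustering split such cells off on both sides too, taking 62 of 64 cells of graft sub-cluster 1 and 204 of 209 of control sub-cluster 4. At resolution 2.0 the plasmacytoid dendritic-like class took 1 cell of the IRI CD45+ libraries, against 78, 94 and 53 cells of the control libraries. Nearly all such graft cells thus stayed in the dendritic-like class. HLA-DRA and CD74 were called lower at that resolution, and the part of this difference in make-up in those calls was not tested. Graft and control cells of the main dendritic-like class were not matched in make-up either.

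Across the whole class XCR1 stood at 40.7 and 102 in the IRI CD45+ libraries, against 328, 329 and 305 in the control libraries. CCL22 stood at 1626 and 1139 in the IRI CD45+ libraries, against 261, 203 and 174 in the control libraries. Of the lists of other cell types, T summed to 288 to 412 in the IRI CD45+ libraries, against 130.3 to 188 in the control libraries, and plasmacytoid dendritic to 564 to 577 in the IRI CD45+ libraries, against 437 to 489.7 in the control libraries. The macrophage list summed to 83.1 to 83.7 in the IRI CD45+ libraries, against 144 to 181 in the control libraries, and the cycling list to 19.3 to 45.6 in the IRI CD45+ libraries, against 108 to 111 in the control libraries. None of these 4 pairs overlapped, and the part of these differences in the class II values was not tested.

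**Figure D2:**
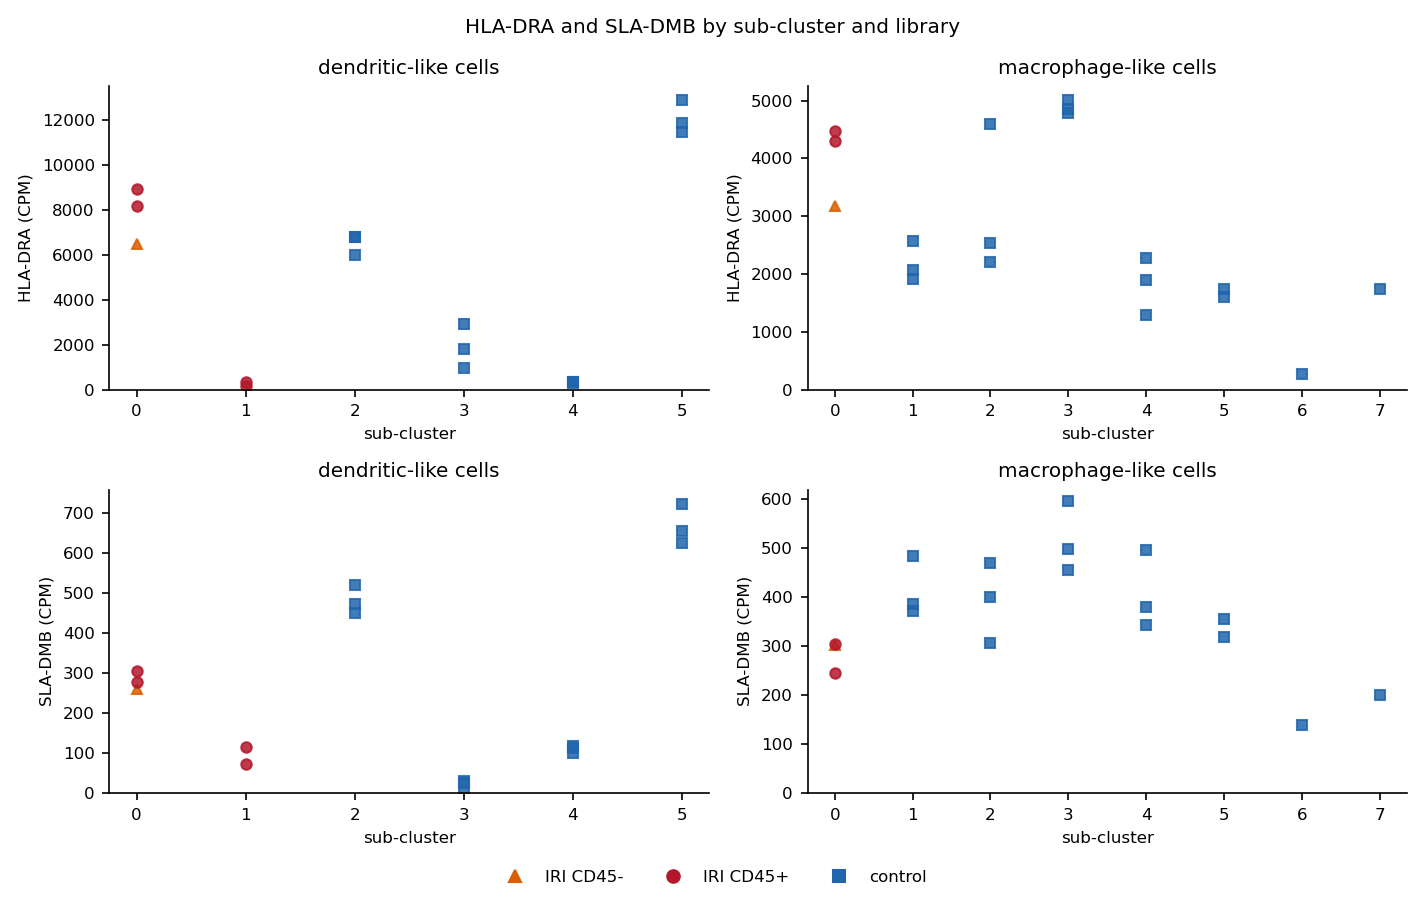
HLA-DRA (top row) and SLA-DMB (bottom row) in CPM by sub-cluster of dendritic-like (left) and macrophage-like cells (right), 1 point per library with at least 20 cells of the sub-cluster; triangles are the IRI CD45- library, circles the IRI CD45+ libraries and squares the control libraries. The sub-clusters with points hold either graft or control libraries, and HLA-DRA spans from 168 to 12896 CPM among dendritic-like sub-clusters.

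HLA-DRA and CD74 rose in graft B-like cells. HLA-DRA stood at 1650.2 and 2064 CPM in the IRI CD45+ libraries, against 794, 894 and 809.8 in the control libraries, and rose (log2 change 1.17 ± 0.15 (SE), adjusted p = 2.72e-06). CD74 stood at 3862 and 4123 in the IRI CD45+ libraries, against 2160.3, 2315 and 1820.3 in the control libraries, and rose (log2 change 0.93 ± 0.15 (SE), adjusted p = 3.82e-05). Neither pair of groups overlapped, and the IRI CD45- library, with HLA-DRA at 2103 and CD74 at 2772 in its 305 B-like cells, also lay above every control library. Both calls held in the 15 alternatives that could change them.

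SLA-DQB1 and SLA-DMA rose less in B-like cells. SLA-DQB1 stood at 2891 and 3421 CPM in the IRI CD45+ libraries, against 2349.6, 2588 and 2322 in the control libraries (log2 change 0.39 ± 0.14 (SE), adjusted p = 0.0269). SLA-DMA stood at 316 and 341 in the IRI CD45+ libraries, against 216, 262 and 209.7 in the control libraries (log2 change 0.52 ± 0.16 (SE), adjusted p = 0.0113). Both calls were lost without the second IRI CD45+ library (adjusted p = 0.296 for SLA-DQB1 and 0.0828 for SLA-DMA) and without the first control library (adjusted p = 0.0938 for SLA-DQB1 and 0.0533 for SLA-DMA). That of SLA-DQB1 was also lost with the top 6% of doublet scores removed (adjusted p = 0.0659) and in the forced clustering (adjusted p = 0.0777). SLA-DMB stood at 109 and 149 in the IRI CD45+ libraries, against 108, 112 and 108 in the control libraries, and did not pass (log2 change 0.26 ± 0.18 (SE), adjusted p = 0.259). CIITA stood at 43.2 and 41.3 in the IRI CD45+ libraries, against 42.8, 56.1 and 57.3 in the control libraries, and did not pass either (log2 change -0.30 ± 0.21 (SE), adjusted p = 0.272). Thus 4 of 6 members were called higher and none lower, where 20% of 9814 genes tested were called higher, 23.4% lower and 43.4% either way; on TMM-scaled values 4 members lay above and 1 below without overlap, where 29.9% and 32.2% of genes did; the median log2 change was 0.46 over the members and -0.02 over all genes.

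Among markers, the B list was higher in graft B-like cells, as given above. MS4A1, the CD20 gene, stood at 547 and 519 in the IRI CD45+ libraries, against 433, 563 and 490.0 in the control libraries, and overlapped. The macrophage list was near 0 in B-like cells, at 12.3 to 21.0 CPM in the IRI CD45+ libraries, against 28.0 to 60.2 in the control libraries. The dendritic list, parts of which B cells share, summed to 2213 to 2367 in the IRI CD45+ libraries, against 1474 to 1521 in the control libraries, with the dendritic genes FLT3 and XCR1 at no more than 1.81 and 2.17 in the IRI CD45+ libraries. The cycling list summed to 232 to 291 in the IRI CD45+ libraries, against 548 to 593 in the control libraries, and the neutrophil list to 97.5 to 169 in the IRI CD45+ libraries, against 10.7 to 38.6 in the control libraries, neither pair overlapping. The part of the B, dendritic, cycling and neutrophil differences in the class II values was not tested.

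**Figure D3:**
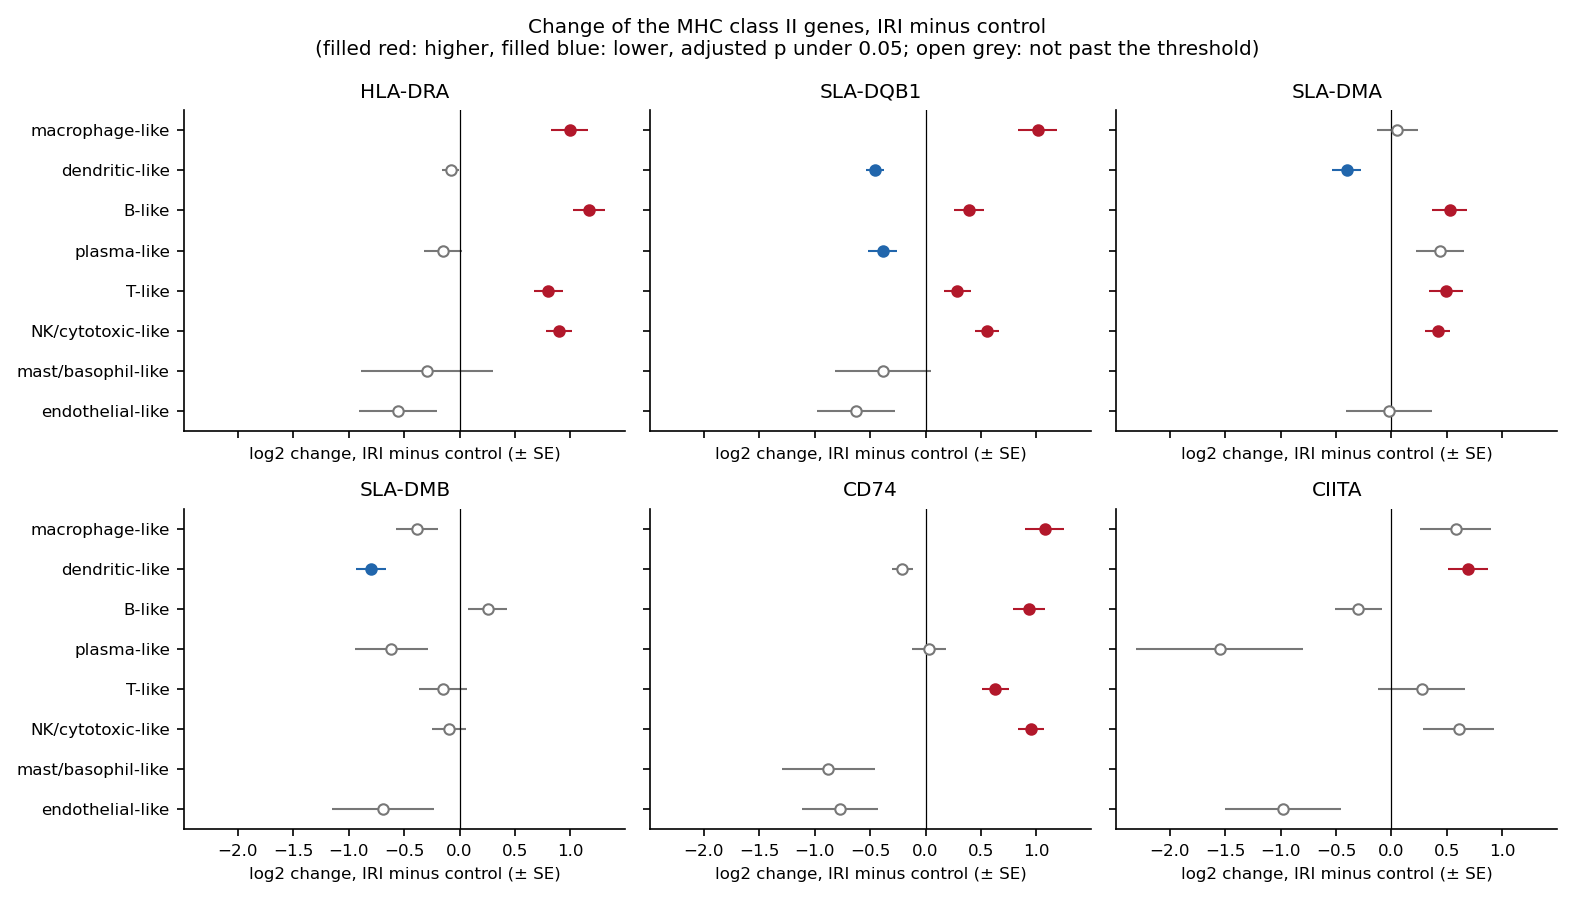
Log2 change, IRI minus control, with its standard error for each measured member (panels) in each class with a test (rows); the leukocyte classes set 2 IRI CD45+ against 3 control libraries and the endothelial-like class 1 IRI CD45- against 3 control libraries. HLA-DRA and CD74 are filled red (higher, adjusted p under 0.05) in macrophage-like, B-like, T-like and NK/cytotoxic-like cells, and SLA-DMB is filled blue (lower) in dendritic-like cells.

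The changes themselves were compared between classes within the same libraries with limma. Between dendritic-like and macrophage-like cells, 3 of 6 members differed, where 5.27% of 9393 genes tested did: the change in dendritic-like cells was below that in macrophage-like cells by a log2 difference of -1.04 ± 0.15 (SE), adjusted p = 0.0188 for HLA-DRA, of -1.45 ± 0.16 (SE), adjusted p = 0.0153 for SLA-DQB1 and of -1.25 ± 0.16 (SE), adjusted p = 0.0164 for CD74. All 3 calls were lost when any 1 control library was left out (adjusted p from 0.113 to 0.134), with the differences keeping their sign. Between B-like and dendritic-like cells, 5 of 6 members differed, where 9.88% of 8859 genes did, with the change higher in B-like cells by 1.44 ± 0.16 (SE), adjusted p = 8.17e-04 for HLA-DRA and 1.23 ± 0.20 (SE), adjusted p = 0.00435 for SLA-DMB; the 5 calls held in every library left out. Between B-like and macrophage-like cells, where 13.6% of 9169 genes differed, only SLA-DMB of the members passed (0.86 ± 0.20 (SE), adjusted p = 0.0263), and not when any 1 control library was left out (adjusted p from 0.0799 to 0.108).

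The UMI ratio of 2 members within a library does not depend on its depth or scaling. In B-like cells SLA-DQB1 had 1.75 and 1.66 UMIs per HLA-DRA UMI in the IRI CD45+ libraries, with 1.82 in the IRI CD45- library, against 2.96, 2.90 and 2.87 in the control libraries. In macrophage-like cells the same ratio was 1.21 and 1.22 in the IRI CD45+ libraries, against 1.12, 1.18 and 1.29 in the control libraries, and overlapped. SLA-DMB per HLA-DRA was 0.0659 and 0.0724 in B-like cells of the IRI CD45+ libraries, against 0.136, 0.125 and 0.133 in those of the control libraries. In macrophage-like cells it was 0.0570 and 0.0679 in the IRI CD45+ libraries, against 0.174, 0.166 and 0.151 in the control libraries. In dendritic-like cells it was 0.0370 and 0.0389 in the IRI CD45+ libraries, against 0.0626, 0.0611 and 0.0638 in the control libraries. The groups did not overlap in any of these 3 classes, nor for this ratio in T-like, NK/cytotoxic-like and plasma-like cells, where the IRI CD45+ mean was also the lower one. Such separation was common among the ratios tested and not particular to SLA-DMB. SLA-DMA per HLA-DRA did not overlap in any of these classes either, its IRI CD45+ mean being higher in plasma-like cells and lower in the others. SLA-DQB1 per HLA-DRA overlapped only in macrophage-like cells. With 2 against 3 libraries the exact two-sided permutation test reaches at best p = 0.200, which these separated ratios had (adjusted p = 0.250 over the 30 ratios tested), so this test cannot pass 0.05 with these libraries. Graft and control files list different features, and class II genes are a family of similar, variable sequences. The sources used here do not say how reads that match several of them were counted, so a difference in read assignment cannot be told apart from one in the cells.

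**Figure D4:**
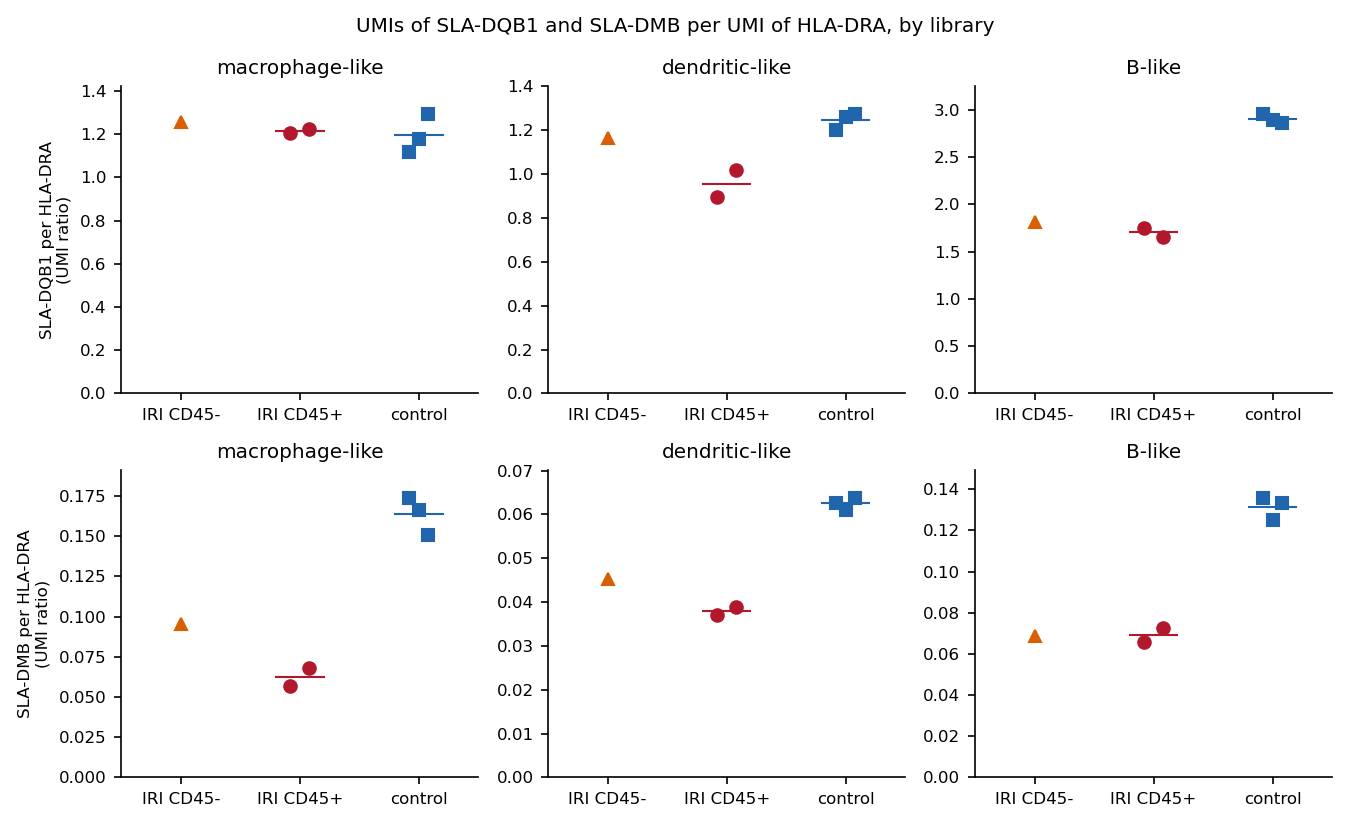
UMIs of SLA-DQB1 (top) and of SLA-DMB (bottom) per UMI of HLA-DRA in macrophage-like, dendritic-like and B-like cells, 1 point per library, with a line at the mean where a group has more than 1 library. SLA-DMB per HLA-DRA is lower in all 3 IRI libraries than in all 3 control libraries in each class, while SLA-DQB1 per HLA-DRA in macrophage-like cells overlaps.

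The remaining leukocyte classes carried far less class II. In NK/cytotoxic-like cells HLA-DRA stood at 450.0 and 347 CPM in the IRI CD45+ libraries, against 232, 236 and 193 in the control libraries, and rose (log2 change 0.90 ± 0.12 (SE), adjusted p = 3.24e-05); CD74, SLA-DQB1 and SLA-DMA rose with it, by log2 changes of 0.95, 0.56 and 0.42. The SLA-DMA call was lost without the first IRI CD45+ library (adjusted p = 0.0799), at resolution 2.0 (adjusted p = 0.0502) and with the top 6% of doublet scores removed, where its log2 change was 0.18 (adjusted p = 0.252). In T-like cells HLA-DRA stood at 181 and 199 in the IRI CD45+ libraries, against 127, 142 and 109.5 in the control libraries, and rose (log2 change 0.80 ± 0.13 (SE), adjusted p = 2.14e-05), as did CD74, SLA-DMA and, barely, SLA-DQB1 (0.63, 0.50 and 0.29, adjusted p = 1.75e-04, 0.00772 and 0.0464). The T-like SLA-DQB1 call was lost in 12 of 16 alternatives, DESeq2 and each control library left out among them (adjusted p from 0.0507 to 0.642), and the T-like count includes it. T-like SLA-DMA was lost without the first control library (adjusted p = 0.0742) and with library totals (adjusted p = 0.124). As fitted, 4 of 6 members were called higher in each class, where 26.8% of genes were called higher in NK/cytotoxic-like cells (59% either way) and 27.7% in T-like cells (59.1% either way). Most graft and most control cells of both classes lay in different clusters: for T-like cells, grafts in one led by LEF1 and CD28 and controls in one led by ICOS and CD40LG; for NK/cytotoxic-like cells, grafts in one led by ADGRG1 and GZMH and controls in one led by GNLY.

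Free RNA in droplets can put class II UMIs in cells that make none. With every cell thinned to 500 UMIs, HLA-DRA was seen in 7.87 and 8.57% of T-like cells in the IRI CD45+ libraries, against 5.39, 6.60 and 5.41% in the control libraries (median depth before thinning 3673 and 3572 and 2237, 2516 and 2242 UMIs). Mast/basophil-like cells, taken as cells that should lack it, showed 6.38 and 2.78% in the IRI CD45+ libraries, against 0, 1.69 and 1.89% in the control libraries (median depth 2533 and 2310.0 and 1593, 2025 and 2010.0 UMIs). Neutrophil-like cells showed 5.24 and 6.47% in the IRI CD45+ libraries. The graft T-like share was near the mast/basophil-like one in the first IRI CD45+ library (7.87 against 6.38%). In the second it was further above it (8.57 against 2.78%). Control T-like shares also lay above control mast/basophil-like shares. The graft mast/basophil-like shares rest on 94 and 36 cells, and the part of free RNA in the T-like values was not tested. NK/cytotoxic-like cells showed 19.6 and 18.4% in the IRI CD45+ libraries, against 10.7, 10.9 and 8.23% in the control libraries.

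The professional classes lay far above that background. Macrophage-like cells showed HLA-DRA in 76.3 and 66.0% of thinned cells in the IRI CD45+ libraries, against 45.5, 51.2 and 60.1% in the control libraries. B-like cells showed it in 48.0 and 58.7% in the IRI CD45+ libraries, against 37.7, 34.1 and 31.6% in the control libraries. Dendritic-like cells showed it in 54.4 and 57.1% in the IRI CD45+ libraries, against 59.3, 63.0 and 67.8% in the control libraries, with the groups apart there and in the other 2 classes. Unthinned, dendritic-like cells with such a UMI made up 77.6 and 84.5% in the IRI CD45+ libraries, against 78.8, 82.9 and 88.0% in the control libraries.

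Plasma-like cells, which shut down class II as they mature from B cells, held HLA-DRA at 179.8 and 221 CPM in the IRI CD45+ libraries, against 201, 238 and 165 in the control libraries. SLA-DQB1 was the single member called there, lower in the grafts (log2 change -0.38 ± 0.13 (SE), adjusted p = 0.0296), where 21.4% of 10778 genes were called lower and 36.4% either way; the call was lost without the first IRI CD45+ library or either of the first and second control libraries. In mast/basophil-like cells 3 members could be tested and none was called by edgeR or by DESeq2, 1 having an unadjusted p under 0.05, where 27% of 2708 genes were called.

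Endothelial-like cells came from the IRI CD45- library on the graft side (654 cells) and from all control libraries (79, 73 and 199 cells). HLA-DRA stood at 614 CPM in the IRI CD45- library, against 1249, 1309.5 and 983 in the control libraries. CD74 stood at 1120.4 in the IRI CD45- library, against 2612, 2761 and 2120.1 in the control libraries. CIITA stood at 26.5 in the IRI CD45- library, against 79.4, 73.2 and 57.2 in the control libraries. The graft library was below every control library for all 6 members in CPM, and for 5 of them after TMM scaling, where 36.4% of genes lay so. With 1 graft library the spread in the fit came from the 3 control libraries alone, so its p-values hold no information on how grafts vary. None was called (edgeR log2 changes -0.56 for HLA-DRA, -0.77 for CD74 and -0.98 for CIITA, adjusted p = 0.230, 0.0739 and 0.150), where 31.2% of 7845 genes were; 1 member had an unadjusted p under 0.05, and DESeq2 also called none. Scaled by library totals in place of TMM, HLA-DRA, SLA-DQB1, CD74 and CIITA were called lower, while the median log2 change of all genes moved by more than 0.1 to -0.47, against -0.09 with TMM.

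The endothelial-like cells of graft and control were not of 1 kind. The graft cells lay mostly in a cluster led by PLAT, CLDN5, CDH5, CEMIP and CCL21, the control cells in one led by FMO1, APOA1, HYAL2 and RAMP2. CCL21, a lymphatic chemokine, stood at 3095 CPM in the IRI CD45- library, against 0, 85.4 and 21.0 in the control libraries, and the lymphatic list summed to 4462 in the IRI CD45- against 302 to 728 in the control libraries. Control lymphatic endothelial-like cells had HLA-DRA at 766, 827 and 584. The AT2 list summed to 46194 in graft endothelial-like cells against 36.6 to 61.8 in the control libraries. The part of these differences in the class II values was not tested.

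AT2-like cells, the surfactant-making alveolar cells, were the largest graft class with 7817 cells, all in the IRI CD45- library. HLA-DRA stood there at 937 (924 to 950.0) CPM, SLA-DQB1 at 796 (784 to 808), SLA-DMA at 296 (289 to 303), SLA-DMB at 62.9 (59.5 to 66.3), CD74 at 1581 (1564 to 1598) and CIITA at 5.78 (4.80 to 6.89). Brackets give exact Poisson 95% intervals, which cover counting error only. The 36 AT2-like cells of the 3 control libraries, summed because no library held 20, had HLA-DRA at 383 (261 to 544), SLA-DQB1 at 334 (220.1 to 486), SLA-DMA at 173 (94.7 to 291), SLA-DMB at 99.0 (42.7 to 195), CD74 at 1583 (1321 to 1883) and CIITA, from 3 UMIs, at 37.1 (7.65 to 108). For HLA-DRA and SLA-DQB1 the interval of the graft lay above that of the controls, for CIITA below it, and for SLA-DMA, SLA-DMB and CD74 they overlapped. These are values of 1 library and 1 pooled sum, with no replicate check and no test.

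HLA-DRA in AT2-like cells stood above that in the other named epithelial classes of the same library. Thinned to 500 UMIs, 30.6% of AT2-like cells had an HLA-DRA UMI, against 7.86% of AT1-like, 6.91% of basal-like and 4.87% of ciliated-like cells; without thinning the AT2-like share was 66.9% at a median of 2179 UMIs per cell, and the ciliated-like share 20.3% at 2480.0. An unnamed epithelial cluster of 1093 cells, led by SCGB1A1, the club cell secretory protein gene, and PIGR, came close to AT2-like cells, with HLA-DRA at 832 CPM and in 26.99% of its thinned cells. CIITA had another order, at 14.2 CPM in AT1-like cells, against 5.78 in AT2-like cells. AT2 RNA itself was spread over the library: the AT2 marker sum of ciliated-like cells was 14.2% of that in AT2-like cells, and their HLA-DRA level 17.0%. In AT1-like cells the figures were 25.6% and 25.02%, and in endothelial-like cells 34.9% and 65.6%. Within AT2-like cells the macrophage list summed to 8.41 CPM, the B list to 20.3, the T list to 43.1 and the NK/cytotoxic list to 61.1. Other leukocyte lists were higher there, at 241 for monocyte, 264 for dendritic, with all 12 markers present, 411 for neutrophil and 466 for plasma markers. PTPRC, the CD45 gene, stood at 14.0. The part of leukocyte RNA in the AT2-like class II values was not tested.

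Any of the 5 chain, DM and CD74 transcripts was seen in 75.2% of thinned AT2-like cells, in 56.2% of endothelial-like cells of the same library and in 83.5%, 90.4% and 78.9% of endothelial-like cells in the control libraries. Of ciliated-like cells in the IRI CD45- library, 18.5% showed any. Among professional classes, the share was 100.0% and 93.6% of macrophage-like cells in the IRI CD45+ libraries, against 81.1%, 88.0% and 92.4% in the control libraries.

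The genes around the members (37 with a feature row, for class II transcription, interferon gamma input, processing, surface turnover, repression and costimulation) were counted in all 8 classes with a test. In macrophage-like cells 8 of 36 tested were called higher and 3 lower, where 11.9% and 17.4% of all genes were. IL10, an anti-inflammatory cytokine (log2 change 3.64 ± 0.31 (SE), adjusted p = 3.83e-05), JAK1, the interferon receptor kinase (1.48, adjusted p = 1.53e-04), and MARCHF1, the ubiquitin ligase that removes class II from the surface (1.205, adjusted p = 0.00127), rose, and CTSD, an endosomal protease, fell (-1.60, adjusted p = 0.00159). In dendritic-like cells 10 of 36 were called higher and 6 lower, where 15.4% and 20.7% of all genes were, led by the endosomal processing genes IFI30, LGMN and SPPL2A (1.42, 2.07 and 1.36) and by JAK1 (0.87), all higher. In B-like cells 13 of 36 were called higher and 9 lower, where 20% and 23.4% of all genes were; the costimulator CD80 (-3.49) and the promoter factor CREB1 (-1.95) fell, and the proteases CTSH (1.72) and LGMN (2.04) rose. In endothelial-like cells 7 of 31 were called higher and 2 lower, where 17.7% and 13.5% of all genes were; with 1 graft library, other clusters and the AT2 list as given above, these calls describe that library. CD40 differed there by a log2 value of 1.78, CD83 by 1.99, IFNGR2 by 1.75 and IRF1 by 1.47. The median log2 change of the list was -0.01 in macrophage-like, 0.14 in dendritic-like, 0.13 in B-like and 0.18 in endothelial-like cells, and over all genes -0.26, -0.10, -0.02 and -0.09 in the same order of classes.

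The other 4 classes gave counts in both directions. In plasma-like cells 6 of 36 were called higher and 12 lower, where 15% and 21.4% of all genes were, and the list's median log2 change was -0.24, against -0.08 over all genes. In T-like cells 10 of 37 were called higher and 11 lower, where 27.7% and 31.4% of all genes were. In NK/cytotoxic-like cells 11 of 37 were called higher and 9 lower, where 26.8% and 32.1% were. In mast/basophil-like cells 3 of 22 were called higher and 2 lower, where 12.2% and 14.8% were.

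CREB1, one of the factors that bind class II promoters, was lower in the grafts in all 8 classes tested and called in 7 of them, with log2 changes from -2.89 to -0.99. The 7 leukocyte comparisons share their libraries and are not independent of each other. CREB1 was chosen from the pathway list after its values were seen. How many other genes were lower in all 8 classes was not counted. Graft and control files list different features, and the part of this in the CREB1 values was not tested. The DO genes encode the inhibitor of DM. SLA-DOA did not pass in B-like cells (log2 change 0.25 ± 0.20 (SE), adjusted p = 0.335), whereas HLA-DOB, chosen after its values were seen, rose there (log2 change 1.15 ± 0.19 (SE), adjusted p = 6.75e-05) and in dendritic-like cells (log2 change 0.76 ± 0.20 (SE), adjusted p = 0.0112).

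Across 66 class and library sums of 17 classes, the log2 levels of the members were correlated in pairs. Pearson r ran from 0.652 for SLA-DMB with CIITA to 0.976 for HLA-DRA with CD74, and was 0.792 for SLA-DMA with SLA-DMB. The members were also set against the mean log2 level of the 5 chain, DM and CD74 genes. There r was 0.981 for HLA-DRA and for SLA-DQB1, 0.979 for CD74, 0.921 for SLA-DMA and 0.911 for SLA-DMB. Each of these 5 is part of that mean, which raises its r. CIITA, which is not part of the mean, stood at 0.764, below SNX8 and CD40. The DO genes SLA-DOA (0.886) and HLA-DOB (0.582) were left out of the ranking of other genes. Among 8517 other named genes the most similar were SNX8 (0.817), CD40 (0.801), ADA2 (0.756), CTSS (0.755), MREG (0.753), UNC93B1 (0.737), IRF8 (0.736), SYNGR2 (0.724), PEA15 (0.717) and RASSF4 (0.716). CTSS is the protease that cleaves CD74, CD40 a costimulatory receptor of antigen-presenting cells and IRF8 a transcription factor of dendritic and B cells. Sums of 1 library share its depth and free RNA, so these values are descriptive and carry no test.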

How the data were processed

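Single cells of pig lung were sequenced in droplets (DNBelab C Series HT kit, DNBSEQ-T7, per the labels' protocols). The deposited files are UMI counts per feature and cell, made with PISA per the file headers. The submitters' processing notes name the build Sscrofa11.1 and, as tools, R 4.2.2 with Seurat 5.5.3; an aligner or an annotation is not given in the sources used here. The members and all lists were chosen with earlier results of these data known.

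Cells with at least 500 UMIs and 200 genes and at most 20% mitochondrial UMIs were used. Scrublet marked 0 to 5 cells per library, so it has not worked and doublets remain. Cells were clustered on 2000 variable genes without class II genes (scanpy 1.11.5, Leiden resolution 1.0), and clusters named from marker lists; none of the class II genes would have been among the 2000. Allowing them therefore changed nothing, and forcing them in left 93.2% of cells in the same class. Counts were summed per class and library of at least 20 cells. IRI CD45+ (2) were compared with control (3) libraries, and for endothelial-like cells IRI CD45- (1) with control (3), by edgeR 4.0.16's quasi-likelihood test (TMM, low count filter, Benjamini-Hochberg over all genes tested, threshold 0.05). A fit needed at least 2 control libraries and 1 IRI library holding enough cells. Neutrophil-like and AT2-like controls and lymphatic endothelial-like, fibroblast-like and smooth muscle/pericyte-like grafts fell short, so no fit was made for these classes. Differences of changes used limma 3.58.1. Ratios used exact permutation tests. Alternatives were DESeq2 1.42.0, no TMM, no low count filter, a stricter cell filter, the top 6% of doublet scores removed, Leiden resolution 2.0, thinning, a replicate block and leaving out each library. The test scripts were checked on simulated counts. Named genes beyond the members include the 4 pathway genes of smallest p per class, the 10 genes other than DO genes most correlated with the members' mean, and markers. Outside these rules, SLA-DOA, HLA-DOB, ARG1, PTPRC and leading genes of clusters and sub-clusters were named too. Intervals cover counting error only.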

Additional observations from a re-analysis of the deposited data

Results flagged for a closer look

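9 differences between the changes of 2 cell classes passed limma's test with Benjamini-Hochberg adjustment over all genes tested, each on 2 IRI CD45+ and 3 control libraries and given as log2 with its SE. The change in dendritic-like minus that in macrophage-like cells was -1.04 ± 0.15, adjusted p = 0.0188 for HLA-DRA, -1.45 ± 0.16, adjusted p = 0.0153 for SLA-DQB1 and -1.25 ± 0.16, adjusted p = 0.0164 for CD74. The change in B-like minus that in dendritic-like cells was 1.44 ± 0.16, adjusted p = 8.17e-04 for HLA-DRA, 1.36 ± 0.14, adjusted p = 7.12e-04 for CD74, 1.23 ± 0.20, adjusted p = 0.00435 for SLA-DMB, 1.16 ± 0.19, adjusted p = 0.00389 for SLA-DMA and 1.06 ± 0.15, adjusted p = 0.00184 for SLA-DQB1. The change in B-like minus that in macrophage-like cells was 0.86 ± 0.20, adjusted p = 0.0263 for SLA-DMB. The 5 B-like against dendritic-like differences passed in every alternative run, and the other 4 did not pass when any 1 control library was left out. The 3 class comparisons share their libraries.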

How the results depend on the processing

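Of 63 gene changes or differences of changes, 29 passed the threshold; 17 of these also passed in the same direction under every alternative run for them, 12 were lost in at least 1, and none changed sign; the causes were not tested. The number of members called was 4 in dendritic-like cells and 2 with the IRI CD45- library added to the IRI group. In plasma-like cells it was 1, 2 with no filter on low counts and 0 with the IRI CD45- library added. In T-like cells it was 4, and 2 with library totals in place of TMM. In mast/basophil-like cells it was 0, 1 under the stricter cell filter (at least 1000 UMIs, 500 genes) and 1 with class II genes forced into the clustering. In endothelial-like cells it was 0, 4 with library totals, 1 under the stricter filter and 1 with class sums thinned to the smallest. Leaving out 1 library in turn gave 2 to 4 members called in B-like, 0 to 2 in plasma-like, 2 to 4 in T-like and 0 to 1 in mast/basophil-like cells, 0 to 2 between B-like and macrophage-like and 0 to 3 between dendritic-like and macrophage-like changes; where this left 1 IRI library, it was assumed to vary like the others.

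Sign changes touched 13 values, all below the threshold. Macrophage-like SLA-DMA was -0.0737 with library totals, -0.0773 with no filter and -0.17 to 0.21 with 1 library left out. Dendritic-like HLA-DRA was 0.13 under the stricter filter and 0.11 with class II genes forced in. Plasma-like CD74 was -0.0646 with no filter, -0.0160 with class II genes forced in, -0.0593 with the IRI CD45- library, -0.0488 thinned and -0.13 to 0.15 with 1 library left out, and HLA-DRA there 0.00125 with the IRI CD45- library. T-like SLA-DMB was 0.0665 with that library. NK/cytotoxic-like SLA-DMB was 0.00681 under the stricter filter and 0.0767 at Leiden resolution 2.0, where mast/basophil-like HLA-DRA was 0.38; mast/basophil-like SLA-DQB1 was 0.11 thinned. Endothelial-like SLA-DMA was 0.0161 in DESeq2, 0.11 with no filter, 0.37 under the stricter filter, 0.51 with lymphatic endothelial-like cells pooled in and 0.00435 thinned. With 1 library left out, B-like SLA-DMB was -0.0318 to 0.51, T-like CIITA -0.16 to 0.61, mast/basophil-like SLA-DQB1 -0.69 to 0.0244, endothelial-like SLA-DMA -0.27 to 0.10, the CD74 difference between B-like and macrophage-like changes -0.0349 to 0.23 and the CIITA difference between dendritic-like and macrophage-like changes -0.14 to 0.44. Values below the threshold that passed in an alternative were macrophage-like CIITA, dendritic-like HLA-DRA and CD74, as given above, plasma-like SLA-DMA with library totals (0.58) and plasma-like CIITA with no filter (-1.64) or without the second IRI CD45+ library, mast/basophil-like CD74 in 3 alternatives, the endothelial-like members counted above and the SLA-DMA difference between B-like and macrophage-like changes without the second IRI CD45+ library.

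Same-numbered libraries did not deviate together (correlations of deviations -0.06 to 0.04, 14 values). All classes draw on the same few libraries, so these values are not independent. They cannot show whether same-numbered libraries share a donor, which the labels do not say either. With the replicate block, 34 of 39 values kept their side of the threshold and sign; dendritic-like SLA-DMA (-0.41, adjusted p = 0.0785) and T-like SLA-DQB1 (0.24, adjusted p = 0.134) were not called, and plasma-like CD74 (-0.12), mast/basophil-like HLA-DRA (7.79e-04) and SLA-DQB1 (0.15) changed sign. The endothelial-like fit has 1 graft library and took no block. The forced clustering, the added IRI CD45- library and the pooled endothelium were chosen after seeing the data. CPM levels moved by more than the spread in 5 of 48 alternatives, and shares of cells in 47 of 48.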

Other observations

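Some graft cells with class II RNA stood outside the named classes, and their values enter no comparison. Unnamed clusters with ARG1 among their leading genes and neutrophil (2 and 131 cells in the IRI CD45+ libraries) or monocyte (57 and 156 cells) as best match are not described further here. A cluster led by ARG1, ACVRL1 and F13A1, named for no cell type because its marker score was under the minimum, had HLA-DRA at 2393 and 2306 CPM in the IRI CD45+ libraries, with 2011 in the IRI CD45- library, with CD74 at 2116 and 2444 in the IRI CD45+ libraries, with 1341 in the IRI CD45- library. A second, led by SLC11A1 and PLXNA1, had HLA-DRA at 3158 and 679 in the IRI CD45+ libraries, from 24 and 302 cells, with 695 in the IRI CD45- library.

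HLA-DOB, which encodes the beta chain of the DM inhibitor and was chosen after its values were seen, also rose in T-like cells (log2 change 1.22 ± 0.24 (SE), adjusted p = 1.74e-04) and NK/cytotoxic-like cells (log2 change 1.34 ± 0.38 (SE), adjusted p = 0.00783) by edgeR's quasi-likelihood test, and did not pass in macrophage-like cells (log2 change 1.64 ± 0.72 (SE), adjusted p = 0.102). In the IRI CD45- library, neutrophil-like cells had HLA-DRA at 59.4% of the AT2-like level and the AT2 marker list at 66.7% of it.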
